A study of Rattus norvegicus with 4 samples.

Results

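Fatty acid synthesis, elongation and SREBP genes were examined in the colon mucosa of rats with chemically induced colitis. Members were the 10 genes Fasn, Acaca, Acly, Scd, Elovl5, Elovl6, Fads1, Fads2, Srebf1 and Srebf2, found on the array as every probe that carried the gene's name or, for Scd (named Scd1 on the array), an accession of that gene. The array names 15541 genes, and the 10 members had 16 of its 41012 probes. The tested rats, of the inbred F344 strain, received resveratrol at 1 mg/kg/day for 20 days before 5% dextran sodium sulphate (DSS) was added to the drinking water for 5 days, and the control rats had standard chow before the same DSS. Resveratrol is a plant polyphenol, and DSS injures the colonic epithelium. The design names 8 rats in each group. RNA of resveratrol plus DSS rats, 2 animals per sample, was labelled with Cy5 on 4 arrays, and a pool of DSS control rats with Cy3 on the same arrays. All rats had colitis, so no healthy mucosa is part of the comparison, and the animals' age and sex are not given in the sources used here. Because no dye was exchanged, treatment and dye cannot be told apart. The pool counts as 1 control sample whose own spread between animals is not measured, and the sources used here do not say whether every array held the same pool.

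Cells build fatty acids in the cytosol. Acly makes acetyl-CoA from citrate, Acaca carboxylates it to malonyl-CoA, and Fasn joins these units into palmitate. Elovl6 lengthens saturated and monounsaturated chains, Scd introduces the first double bond, and Fads1 and Fads2 together with Elovl5 turn dietary polyunsaturated fatty acids into longer, more unsaturated ones. The transcription factors SREBP1 and SREBP2, products of Srebf1 and Srebf2, are released from membranes when sterols are scarce. SREBP1 chiefly drives the fatty acid genes and SREBP2 the cholesterol genes.

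Each probe is a stretch of 60 bases, and the ones printed here are those on which the results turn. The Elovl5 and Elovl6 probes lie in related stretches of paralogous genes. Positions are those the files give for the rat build rn3, strands likewise, and a span over 60 bases means that the probe crosses an intron. The sequence of the Elovl5 probe is at chr8:82961485-82961544 on the plus strand, that of Elovl6 at chr2:227034274-227039047 (plus), of the bright Acaca probe at chr10:72691418-72691477 (plus), and those of Srebf2 at chr7:120582629-120582688 and chr7:120603521-120604360 (both plus). Capitals mark hexamers described with Elovl5 below.
Elovl5 A_44_P482267: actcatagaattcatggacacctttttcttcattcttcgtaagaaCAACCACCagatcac
Elovl6 A_44_P428691: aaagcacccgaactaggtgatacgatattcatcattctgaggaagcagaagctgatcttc
Acaca A_42_P489761: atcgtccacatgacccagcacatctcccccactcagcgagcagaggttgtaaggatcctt
Srebf2 A_44_P382747: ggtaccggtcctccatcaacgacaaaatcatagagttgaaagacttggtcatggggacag
Srebf2 A_44_P504215: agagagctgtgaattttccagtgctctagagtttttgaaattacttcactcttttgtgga

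The first 30 bases of both Fasn probes, for which the files give no position, and the last 30 of the Scd probe (chr1:249717902-249717961, minus) follow, since these probes show where a gene's result rests on a single stretch of sequence.
Fasn A_44_P235985: aattgctgcttgggttttgaatttactgca
Fasn A_44_P235978: gaaggacctaccctgtctcaataatgtctc
Scd A_44_P550145: cctACCTCAagggcagttctgaggtgatta

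The measure throughout is the log2 ratio of Cy5 (resveratrol plus DSS) over Cy3 (DSS control pool) after loess normalization within each array, so a positive value means higher with resveratrol and 1 unit is a doubling. Errors after ± are moderated standard errors from limma over 4 arrays unless another n is given. A probe was called when limma's Benjamini-Hochberg adjusted p over all tested probes was under 0.05. The scanner's own flag set 44.1% to 49.2% of an array's spots well above background in Cy5 and 42.8% to 57.1% in Cy3. Over the tested probes, the ratios of any 2 arrays, which may share the same control pool, correlated at 0.70 to 0.89. Replicates 1 and 2 lay on slide 1 and replicates 3 and 4 on slide 2, and the scanner software flagged 3.45% and 4.68% of spots as outliers on slide 1 and more on slide 2, up to 13.7% in replicate 4. The number of arrays limits the precision of all values, and p-values measure the spread between 4 samples of 2 pooled rats. Colon epithelium markers were detected throughout: 11 of 11 were tested and 7 were called higher.

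Of the 16 member probes, 11 could be tested, and 5 were called higher, 0 lower and 6 not called. At an unadjusted p under 0.05 in limma, 1 was lower, the bright Acaca probe. Over the whole array 47.1% of the 18869 tested probes were called, 24.4% higher and 22.7% lower, so a call by itself is common here. Counted by each gene's brightest probe, 4 of 7 tested member genes were higher (Fasn, Elovl5, Elovl6 and Srebf2), 0 were lower, and Acaca, Scd and Srebf1 were not called. The matching shares over 9428 genes were 25.7% higher and 19.6% lower. Acly, Fads1 and Fads2 could not be tested. Without replicate 1, or without replicate 2, 2 member genes were called higher (Elovl5 and Srebf2), and on slide 2 alone 1 (Elovl5). Of all calls 51.7% were in the higher direction, and 78.8% when arrays were centred on their median in place of loess. The median over the 7 member genes was 0.80, beside 0.02 over all genes tested.

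**Figure D1:**
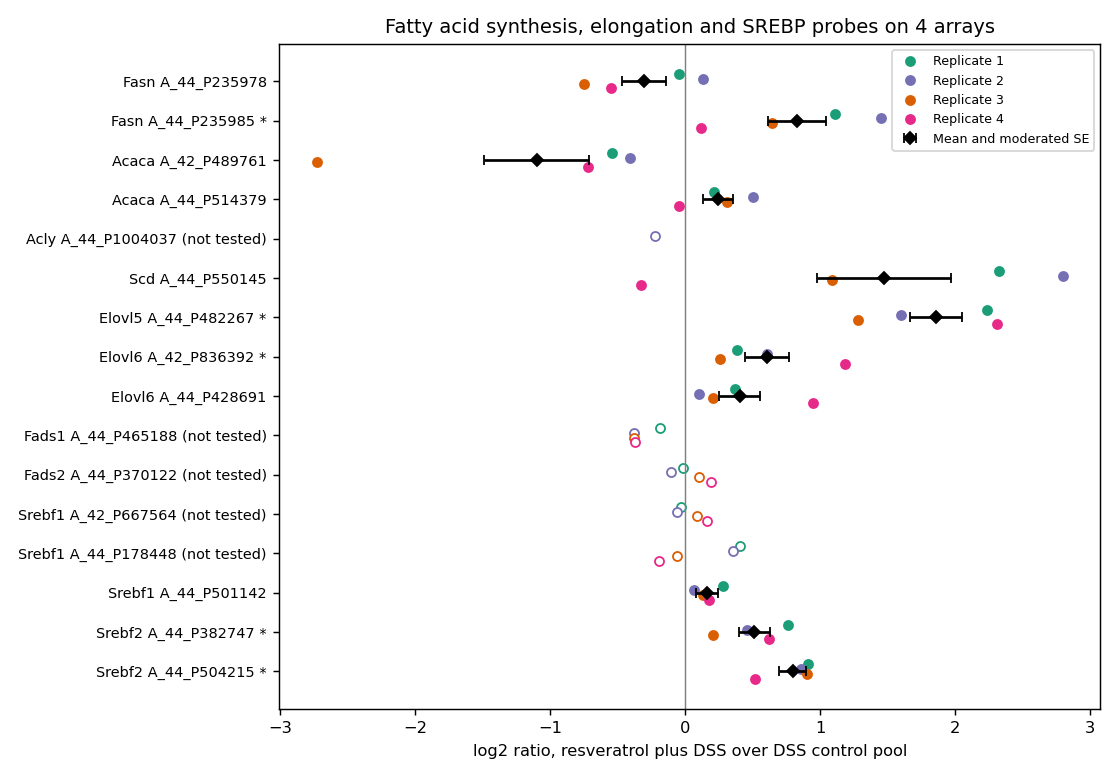
Log2 ratios (x axis) of resveratrol plus DSS over the DSS control pool for all 16 member probes (y axis), with 1 point per array coloured by replicate, open for probes that were not tested, and black diamonds for the mean with its moderated standard error. Asterisks mark the 5 probes called higher; the bright Acaca probe has 1 array at -2.73, far below the other 3, and the pair of Fasn probes lie on opposite sides of 0.

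Both member elongases, Elovl5 and Elovl6, rose by their brightest probes. Elovl5, which lengthens polyunsaturated fatty acids, had log2 ratios of 2.24, 1.60, 1.28 and 2.32 in replicates 1 to 4. All 4 arrays lay above 1, and the mean was 1.86 ± 0.19 (adjusted p = 0.00416), a 3.62-fold higher signal with resveratrol. In log2 intensity the probe read 12.4, 11.4, 12.5 and 12.8 in resveratrol plus DSS, against 10.2, 9.80, 11.2 and 10.5 in the DSS control pool, so the channels did not overlap. Among 1282 tested probes within 0.5 log2 units of its brightness, 0.624% had a ratio at least as high. Elovl5 remained called under all 15 other settings in which its probe was measured, with means between 1.71 and 2.47. With loess both slides gave similar values (1.92 on slide 1 and 1.80 on slide 2). With outlier-flagged spots kept, slide 2 lay higher (2.67 and 3.11) than slide 1 (2.39 and 1.72).

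Its probe holds short sequences that were more frequent among probes with high ratios, though most probes that hold them did not have high ratios. In the tested probes, 9 hexamers were at least 7 times as frequent among the 480 probes at a mean log2 ratio of 1 or more as among all tested probes. All 9 are overlapping windows of a single longer sequence, so they are not separate findings. The Elovl5 probe holds 3 of them, which overlap in its capitals (CAACCACC). One of these 3, ACCACC, occurred in 357 tested probes, 1.89% of the total, and in 20.4% of the probes at 1 or more. The hexamers were chosen from these same ratios, so that difference is how they were found and not a test. The 357 probes had a median of 0.42, and 27.5% of them reached 1, beside 2.54% of all tested probes. Of the 48 tested probes at or above the Elovl5 mean, 35 held at least 1 of the 9 hexamers, beside 12.2% of all tested probes.

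In the 98 ACCACC probes at 1 or more, the medians of replicates 1 to 4 were 1.87, 1.38, 1.03 and 1.79. In the 149 probes at 1 or more with none of the 9 hexamers they were 1.54, 1.31, 0.94 and 1.22, so replicate 3 was lowest in both sets, as it was for Elovl5. Both sets were chosen by the mean of these arrays, and their medians are a description. The medians of both sets are from loess alone. For Elovl5, replicate 2 was the lowest instead with median centring (2.87, 1.86, 2.03 and 2.99) and with outlier-flagged spots kept. In 48 genes with a tested ACCACC probe and another that held none of the 9 hexamers, the first was higher in 31, with a median difference of 0.38 (quartiles -0.11 and 1.05). This count reuses the ratios from which the hexamers were chosen and is no test either. The related stretch of the Elovl6 probe matched the Elovl5 probe at 30 of 58 aligned bases and held no listed hexamer. Elovl5 has no second probe on the array, and the part that probe sequence has in its value was not tested.

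**Figure D2:**
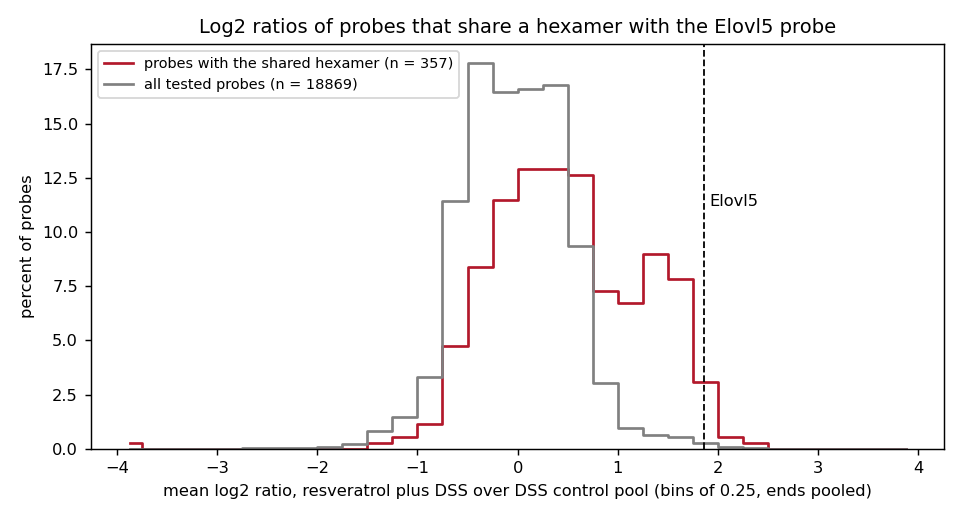
Percent of probes (y axis) in bins of the mean log2 ratio, resveratrol plus DSS over DSS control pool (x axis), for the 357 probes that share the hexamer ACCACC with the Elovl5 probe (red) and for all 18869 tested probes (grey). The red line has a second rise between 1 and 2, and the dashed line marks Elovl5 at 1.86.

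Elovl6, the elongase of palmitate, rose less. Its downstream probe (chr2:227040726-227040785, plus strand) had log2 ratios of 0.39, 0.61, 0.26 and 1.18, all above 0, with a mean of 0.61 ± 0.16 (adjusted p = 0.0277), or 1.53-fold higher with resveratrol. The second probe, which crosses an intron, had 0.37, 0.10, 0.21 and 0.95 and a mean of 0.41 ± 0.15 that did not pass (adjusted p = 0.0675). Replicate 4 was the highest in both probes. The probes differed by 0.20 ± 0.22 (SD, n = 4), the first being higher on 4 of 4 arrays (exact sign-flip test, two-sided, p = 0.125, the smallest 4 arrays allow). The call of the first probe was lost without replicate 1 (adjusted p = 0.059) and without replicate 2 (adjusted p = 0.0796).

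For Fasn, the synthase itself, the direction depended on the probe. Probe A_44_P235985 had log2 ratios of 1.11, 1.45, 0.64 and 0.12, all positive, and was called higher with a mean of 0.83 ± 0.22 (adjusted p = 0.0264), or 1.78-fold. In log2 intensity it read 10.9, 10.9, 10.5 and 9.48 in resveratrol plus DSS, against 9.83, 9.42, 9.86 and 9.36 in the DSS control pool. Probe A_44_P235978 had -0.05, 0.13, -0.75 and -0.55, with both signs among the arrays, and was not called (-0.30 ± 0.16, adjusted p = 0.161). It read 10.05, 9.99, 9.504 and 9.16 in resveratrol plus DSS, against 10.1, 9.86, 10.3 and 9.70 in the DSS control pool.

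On every array the first Fasn probe lay above the second, by 1.16, 1.32, 1.39 and 0.67, a mean difference of 1.13 ± 0.33 (SD, n = 4; exact sign-flip test, two-sided, p = 0.125, the smallest possible). A range that wide was found in 6.70% of the 1686 genes with at least 2 tested probes, whose median range was 0.36. Neither probe holds a listed hexamer or was flagged as an outlier on any array. When the probes were averaged, Fasn was 0.26 ± 0.18 and not called (adjusted p = 0.259). Both probes ran higher on slide 1 than on slide 2: the called one averaged 1.28 on slide 1 and 0.38 on slide 2 (adjusted p = 0.18 on slide 2 alone), and the other 0.04 and -0.65. The call was also lost with the scanner's processed signals (0.66, adjusted p = 0.106), without replicate 1 (adjusted p = 0.0828) and without replicate 2 (adjusted p = 0.0759).

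Acaca, which makes the malonyl-CoA that Fasn uses, was not called by either probe. The bright probe had log2 ratios of -0.54, -0.41, -2.73 and -0.72, negative on all arrays but with replicate 3 far below the rest, and a mean of -1.10 ± 0.39 (adjusted p = 0.0591). The second probe, described in the files as part of the 3′ untranslated region (chr10:72693315-72693374, plus), had 0.21, 0.51, 0.31 and -0.04, mostly above 0, and a mean of 0.25 ± 0.11 (adjusted p = 0.105). The bright probe lay below the second on 4 of 4 arrays, by 1.35 on average (a difference of -1.35 ± 1.14, SD, n = 4; exact sign-flip test, two-sided, p = 0.125, the smallest possible).

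The value of the bright probe on replicate 3 differed between ways of normalizing. Of 544 probes that passed the filter within 0.5 log2 units of its brightness, 45.0% were flagged as outliers on replicate 3 and 50.7% on replicate 4, against 10.8% and 8.09% on replicates 1 and 2. With flagged spots kept in the loess fit, probes of this brightness shifted by 2.39 on average on replicate 3 and by 0.14 to 0.67 on the other arrays. The bright Acaca probe then had -0.25, -0.26, -0.37 and -0.08, with a mean of -0.24 (adjusted p = 0.067). Replicate 3 remained well below the others with median centring (0.23, -0.14, -1.67 and -0.38) and with the scanner's processed signals (-0.51, -0.13, -2.55 and -1.12). The bright probe was called lower without replicate 3 (-0.56, adjusted p = 0.0105), and also with median centring (-0.49), with the processed signals (-1.08) and on slide 1 alone (-0.48). With median centring each member probe had the same standard error (0.174), so this probe's own wide spread did not enter that call. The authors' deposited table gives it -0.73, -0.62, -1.89 and -0.84, negative on each array and lowest in replicate 3. The mean was thus negative in each setting run, while its size ranged from -1.72 to -0.24.

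**Figure D3:**
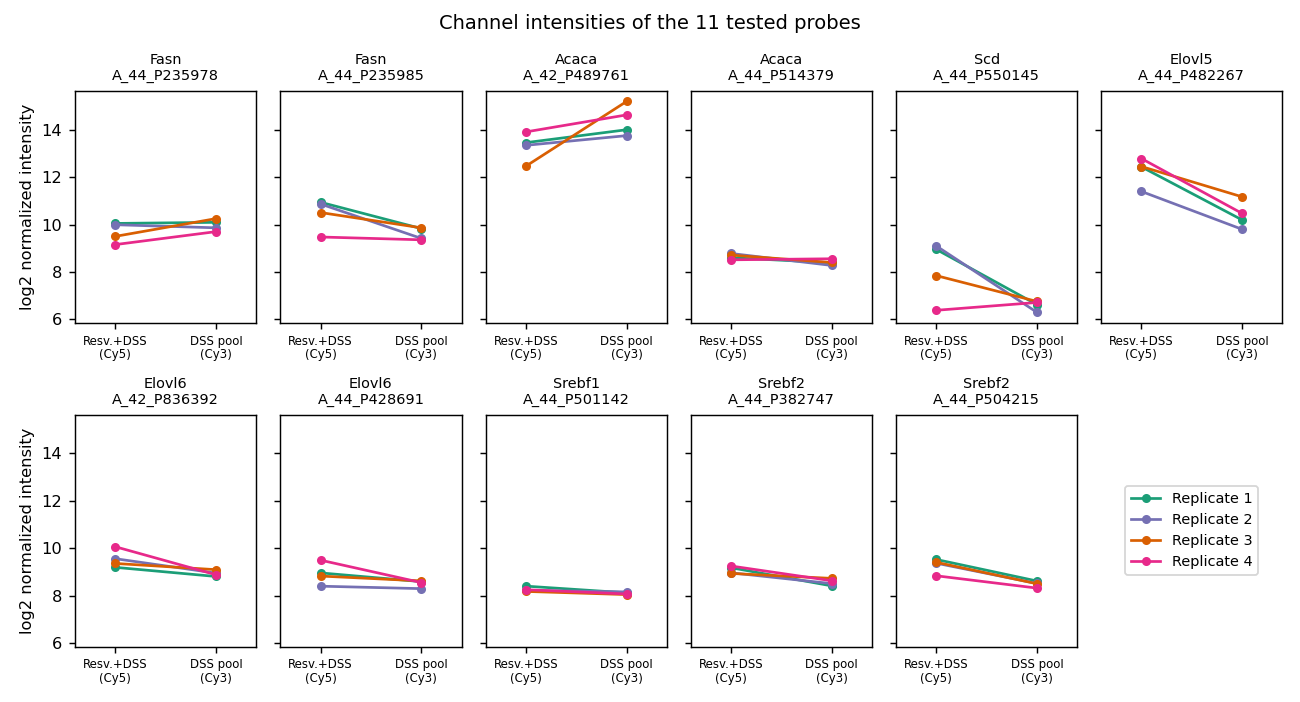
Log2 normalized intensity (y axis) of the 11 tested member probes in resveratrol plus DSS (Cy5, left) and the DSS control pool (Cy3, right), with 1 line per array. The Elovl5 lines all fall from left to right, the Fasn probes differ in slope, and in the bright Acaca probe the line of replicate 3 is the steepest.

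Scd, the desaturase that makes oleate, had the widest spread. Its single probe gave 2.33, 2.80, 1.09 and -0.33 in replicates 1 to 4, 3 arrays above 1 and the last below 0. The mean of 1.47 ± 0.50 narrowly missed the threshold (adjusted p = 0.0519). In log2 intensity it read 8.95, 9.10, 7.85 and 6.39 in resveratrol plus DSS, against 6.63, 6.30, 6.76 and 6.72 in the DSS control pool. The probe was well above background in Cy5 on 3 arrays and in Cy3 on 0, so the fold of the channel means is only a bound. Against the lowest signal well above background on each array, that mean was at least 1.45-fold higher with resveratrol, but replicate 4 ran the other way and the gene was not called. Slide 1 averaged 2.57 and slide 2 0.38. The gene was called higher on slide 1 alone, without replicate 4 (2.07, adjusted p = 0.0214) and with the processed signals (2.54, adjusted p = 0.0134). The probe also holds a listed hexamer, ACCTCA, whose 506 tested probes had a median of 0.23.

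Among the transcription factors, Srebf2 moved and Srebf1 did not pass. The Srebf2 probe that crosses an intron had log2 ratios of 0.91, 0.86, 0.91 and 0.52 and was called higher at 0.80 ± 0.10 (adjusted p = 0.00513), or 1.74-fold. The other Srebf2 probe had 0.77, 0.46, 0.21 and 0.62 and was called higher at 0.51 ± 0.11 (adjusted p = 0.0171), or 1.43-fold. All 8 values were positive, and Srebf2 was thus the member gene with 2 probes called in the same direction. The probes differed by 0.28 ± 0.34 (SD, n = 4; exact sign-flip test, two-sided, p = 0.25), and neither holds a listed hexamer. The call of the first was lost on slide 2 alone (0.71, adjusted p = 0.0544), and that of the second in 6 of 16 other settings, with means from 0.42 to 0.69 over all 16.

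Srebf1 is represented by 3 probes. The one that crosses an intron (chr10:46477093-46477609, minus), spotted 10 times per array, had 0.28, 0.07, 0.13 and 0.18, positive on all arrays, and a mean of 0.17 ± 0.08 that did not pass (adjusted p = 0.134). It was not called in any of the 16 other settings, where its mean ranged from 0.13 to 0.25. Of the other Srebf1 probes, neither channel was well above background on a single array, and they were not tested. The files do not separate the SREBP1 isoforms.

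The remaining members could not be compared. Acly was well above background in both channels on 4 arrays, but its spot was flagged as an outlier on 3 of them, which left a single log2 ratio of -0.22 in replicate 2. With flagged spots kept, its values were -0.17, -0.11, 0.10 and 0.08 (mean -0.03, SD 0.13, n = 4), on both sides of 0. Fads1, a desaturase of polyunsaturated fatty acids, had no array on which Cy5 or Cy3 was well above background. Its log2 ratios were -0.18, -0.38, -0.38 and -0.37, all negative, and with no filter on dim probes it was called lower, though both channels were near background. Fads2, which acts before it, was well above background in Cy5 on 1 array and in Cy3 on 2, and its log2 ratios ranged from -0.11 to 0.19. No fold is given for either desaturase at these signals.

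**Figure D4:**
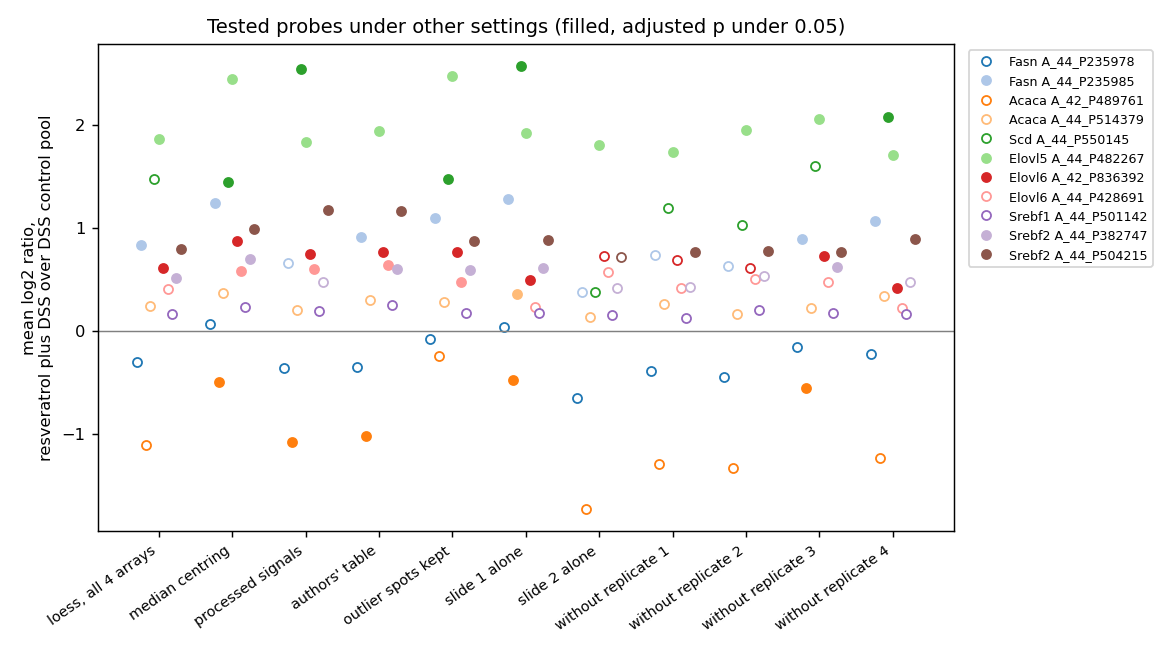
Mean log2 ratio, resveratrol plus DSS over DSS control pool (y axis), of the 11 tested member probes under loess with all 4 arrays and under 10 other settings (x axis), filled where the adjusted p was under 0.05. Elovl5 is filled throughout, while on slide 2 alone the other probes are open.

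Other genes of the pathway were read from a list of 59, of which 53 were on the array and 45 were tested. By brightest probe 15 were higher, 3 lower and 27 not called, with a median of 0.13, and as given above 25.7% of all genes were higher and 19.6% lower. The share called higher was thus not far from that of the array, while the share called lower (3 of 45) was smaller than the array's 19.6%. No difference from the array was tested. The count of higher genes was 25 with median centring and 4 on slide 2 alone. In each group below with 0 calls in a direction, limma gave 0 there at an unadjusted p under 0.05 as well, markers included. Insig2, a homologue of Insig1, and Acacb, the mitochondrial carboxylase, were not tested.

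Around SREBP processing, 2 of 10 tested genes were higher and 0 lower. Scap, the escort that carries SREBPs to the Golgi, had a mean of 0.25 ± 0.17 and was not called (adjusted p = 0.263). Insig1, which holds Scap in the endoplasmic reticulum and is itself a target of SREBPs, was measured on 3 arrays by its brightest probe (0.47, 0.37 and -0.78; replicate 4 flagged) and averaged 0.02 ± 0.27 (n = 3, adjusted p = 0.956). Its other 3 probes gave 0.56 ± 0.12 and 0.40 ± 0.11, both called higher (adjusted p = 0.0145 and 0.0344), and -0.08. Mlx, partner of the carbohydrate-response factor ChREBP, rose by 1.17 ± 0.09 (adjusted p = 0.0039) through a probe that holds a listed hexamer, and Rxra, partner of the liver X receptors, rose by 0.66 ± 0.12 (adjusted p = 0.00973).

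Enzymes that supply acetyl-CoA and NADPH had 4 of 8 higher and 0 lower, and none of these 4 probes holds a listed hexamer. Acss2, which makes acetyl-CoA from acetate, rose on all 4 arrays (0.71, 0.23, 0.98 and 1.13; mean 0.76 ± 0.16, adjusted p = 0.0147). Me1, the cytosolic malic enzyme, rose by 0.67 ± 0.13 (adjusted p = 0.011), and its second probe by 0.65 ± 0.11. Me2, the mitochondrial malic enzyme, rose by 0.52 ± 0.10 (adjusted p = 0.0131), and Slc25a1, the mitochondrial citrate carrier, was not called (-0.02 ± 0.14, adjusted p = 0.894).

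In the elongation cycle and among other elongases and desaturases, 4 of 13 were higher and 2 lower. Cyb5r3, the reductase that passes electrons to cytochrome b5 for the desaturases, had 2.17, 1.55, 1.16 and 2.25 (mean 1.78 ± 0.20, adjusted p = 0.00451). Those values fall close to the ones of Elovl5 on each array, and this probe too holds ACCACC, shown in the last 30 of its 60 bases.
Cyb5r3 A_43_P13317: gaaccatgcctgtcacctAACCACCTactg

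The second Cyb5r3 probe, which holds no listed hexamer, gave 0.17 ± 0.08 and was not called (adjusted p = 0.134). Hacd3, a dehydratase of the elongation cycle, rose by 0.97 ± 0.10 (adjusted p = 0.00409) with no listed hexamer. Elovl3, an elongase of very long saturated chains, had a mean of -0.66 ± 0.09 in the fit and was called lower (adjusted p = 0.00544). Its probe was not well above background in Cy5 on any array, which makes it at least 1.44-fold lower with resveratrol.

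Among genes of fatty acid activation and esterification, 5 of 14 were higher and 1 lower. Acsl4, an acyl-CoA synthetase that prefers arachidonate, fell on all 4 arrays (-0.74, -0.50, -1.31 and -1.10; mean -0.91 ± 0.15, adjusted p = 0.00796), and its second probe fell too (-0.81 ± 0.14, adjusted p = 0.00893). Gpam, the mitochondrial enzyme that opens glycerolipid synthesis, rose by 0.58 ± 0.08 (adjusted p = 0.0059), and Agpat2, which adds the next acyl chain, by 0.56 ± 0.12 (adjusted p = 0.0145). The Agpat2 probe holds a listed hexamer. SREBP2's cholesterol targets had 4 of 10 higher and 0 lower, the highest being Stard4, a sterol carrier, at 0.79 ± 0.12 (adjusted p = 0.007).

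**Figure D5:**
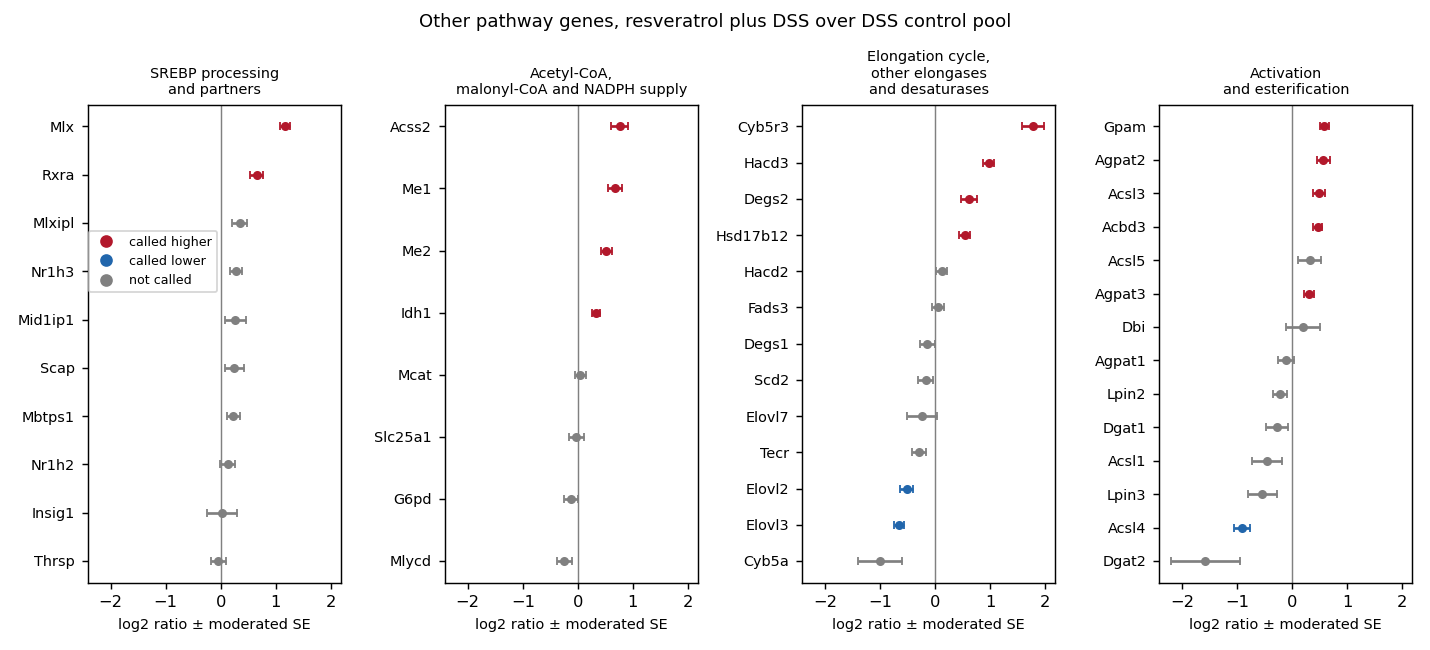
Mean log2 ratio with moderated standard error (x axis), resveratrol plus DSS over DSS control pool, of the 45 tested pathway genes outside the members by brightest probe (y axis), in 4 groups. Red marks the 15 called higher, blue the 3 called lower (Elovl2, Elovl3 and Acsl4) and grey the 27 not called.

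Markers of other cell types moved in the same comparison. Colon epithelium markers had 7 of 11 called higher and 0 lower, with a median of 0.80, Krt18 the highest at 1.38 ± 0.28. The called Krt18 and Cdx1 probes hold ACCACC, and the second Krt18 probe gave 0.25 ± 0.09 and was not called (adjusted p = 0.0674). Of the 8 epithelium markers whose probes hold no listed hexamer, 5 were called higher. The summed normalized signal of the 7 epithelium markers measured on all arrays ranged from 44964 to 88851 in resveratrol plus DSS and from 27000 to 45629 in the DSS control pool. That sum includes the Krt18 and Cdx1 probes that hold ACCACC. Fibroblast markers had 5 of 6 lower by brightest probe (lowest Col3a1, -2.30 ± 0.25). Col1a1 was not called by its brightest probe (0.22 ± 0.12, n = 3, adjusted p = 0.158), which holds ACCACC. Its other probes were called lower, at -2.71 ± 0.21 (adjusted p = 0.00404) and -1.48 ± 0.15 (n = 3, adjusted p = 0.00514). Leukocyte markers had 5 of 8 lower (lowest S100a8, -3.17 ± 0.23), smooth muscle 1 of 4 lower (Des, -1.40) and hepatocyte 0 of 2 called. Pancreatic acinar markers had 7 of 8 lower, with Amy2a3 at least 23.4-fold lower (adjusted p = 0.000904). The Amy2a3 probe, which fell, holds ACCACC too.

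Adipocyte markers, of a cell type that makes and stores fat, had 0 of 9 called higher and 2 lower (Lep and Adrb3), with a median of -0.46. Fabp4, however, had 2.06, 1.93, 0.11 and -0.82, high on slide 1 and low on slide 2, and Adipoq had 0.68, 0.82, 0.08 and -0.80. Cfd, whose mean was negative, had 0.19, 0.38, -1.27 and -1.83, also higher on slide 1. Not every marker was higher on both slide 1 arrays: Adrb3 had -1.33, 0.10, -1.21 and -1.20. Scd was also higher on slide 1, and on slide 2 it had 1.09 in replicate 3 and -0.33 in replicate 4. The summed signal of the 6 adipocyte markers measured on all arrays ranged from 1515 to 6081 in resveratrol plus DSS and from 3142 to 4146 in the DSS control pool. In bulk mucosa, fewer cells of a type and less RNA per cell cannot be told apart, and the part of these cell types in the members' values was not tested.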

How the data were processed

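Colon mucosa RNA was measured on 4 Agilent 2-colour arrays, Cy5 holding resveratrol plus DSS and Cy3 the DSS control pool. Per the file headers, the deposited spot intensities come from version 9.5.3.1 of Agilent Feature Extraction, with probe positions in build rn3. The authors' deposited value table holds log2 ratios, Cy5 over Cy3, as its match to the scanner values showed (r 0.98 to 0.99 on each array); its column medians were -0.01, -0.01, 0.09 and -0.02, and its centring is unknown. Agilent Feature Extraction and limma are the tools listed, per the submitters' processing notes.

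From mean signals and local background medians, background was corrected by normexp (offset 50), ratios were normalized by loess within arrays, and control and outlier-flagged spots had weight 0. Spots of a probe were averaged. A probe entered where 3 or more arrays had it well above background in Cy5 or Cy3 (20409 of 41012), and 18869 with 2 or more values were tested against 0 with lmFit and eBayes (limma 3.58.1, R 4.3.3), two-sided, Benjamini-Hochberg at 0.05. Names came from a RefSeq table of assembly GRCr8. Intensities per channel are after loess and Aquantile normalization. The fit was tested on simulated data.

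The members and lists were chosen with earlier results of these data known. Named were every member probe, up to 3 called genes per pathway group by size, 7 genes always (Scap, Insig1, Insig2, Acacb, Acss2, Me1 and Slc25a1) and the extreme called marker of each list. Exceptions, named after their values were seen, were Fabp4, Adipoq, Cfd, the further probes of Insig1, Cyb5r3 and Krt18, Cdx1, Col1a1, and the hexamers. Replicates were numbered by accession order.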

Additional observations from a re-analysis of the deposited data

Results flagged for a closer look

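Dixon's test covered the tested member probes and the brightest probes of pathway genes named by rule. Of these, 24 had values on all 4 arrays. In 2 of the 24, the gap of 1 array from the other 3, over the range, exceeded the 95% critical value for 4 samples. Chance alone flags about 1 in 20 such groups. The bright Acaca probe had its lowest log2 ratio in replicate 3, at -2.73, with the others between -0.72 and -0.41 (gap over range 0.867). The Srebf2 probe that crosses an intron had its lowest in replicate 4, at 0.52, with the others between 0.86 and 0.91 (gap over range 0.866); all 4 were above 0.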

How the results depend on the processing

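Elovl5 was higher and called in all 15 alternatives in which its probe was measured, and Srebf2 by its brightest probe in 15 of 16. Over the 11 member probes, 137 of 172 alternative values kept direction and call, 16 lost the call, 17 gained one and 2 changed sign without being called: the second Fasn probe with median centring (0.068) and on slide 1 alone (0.042). Other sign changes concerned Scap on slide 1 alone (-0.074), Insig1 with processed signals (-0.080), in the authors' deposited table (-0.029), with slide as a random block (-0.034) and without single replicates (-0.20 to 0.42), and Slc25a1 with median centring (0.44), outlier spots kept (0.33), slide 1 alone (0.25) and without single replicates (-0.15 to 0.080).

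With all arrays and loess, 4597 probes were higher and 4289 lower, 51.7% of calls being higher. Median centring moved the median of tested probes from -0.02 to 0.20, so 78.8% of calls were higher and 1839 lower, with 25 pathway genes higher and 1 member probe and gene (Acaca) lower; there each member probe had the same standard error (0.174). With the standard error times the square root of 2, 1456 probes were higher and 724 lower (66.8% of calls higher). There 2 member probes of 2 genes (Elovl5 and Srebf2) and 4 pathway genes were higher. That setting allows the pool an error like that of the mean of the 4 samples, not of a single sample, and the pool's own error was not measured. Slide 2 alone left 747 higher and 1002 lower, 1 member probe and gene (Elovl5) and 4 pathway genes higher, and slide 1 alone gave 1 member probe and gene lower and 23 pathway genes higher and 7 lower. The processed signals gave 2779 probes lower; they and the authors' deposited table called 1 member probe and gene (Acaca) lower, and the table also called 5 pathway genes lower. With no filter on dim probes 1 member probe and gene (Fads1) was lower; with both channels above background on all arrays 2584 probes were higher, 1967 lower and 1 pathway gene lower. Leaving out each array in turn gave 1946 to 4751 probes higher and 1426 to 4213 lower, 2 to 5 member probes and genes higher and 0 to 1 lower, and 7 to 18 pathway genes higher and 2 to 4 lower; without replicate 1 or 2 only Elovl5 and Srebf2 of the member genes were called. Without probes that hold a listed hexamer, an alternative chosen after seeing the data, Elovl6, Fasn and Srebf2 were called higher and Elovl5 and Scd were not measured. The causes were not tested. No paired analysis was possible because the samples form 1 group set against 1 control pool.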
